A study of Mus musculus with 2 samples.

Results

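The T helper 1 axis considered here comprises 10 genes, of 20737 with a named probe on the arrays. They are the T-box factor genes Tbx21 (T-bet) and Eomes, the factor genes Hlx, Runx3 and Stat4, the cytokine gene Ifng, and the receptor chain genes Il12rb1, Il12rb2, Il18r1 and Il18rap. Every probe whose platform annotation carries one of these symbols was taken, which gave 15 probes on 16 spots. Signals were compared between 1 array of a library labelled Gfi1 knock out and 1 array of a library labelled Gfi1 wild type. Both came from splenic CD4 T helper cells of C57BL/6 mice, isolated as naive cells and then cultured for 2 days on antibodies to TCR-β (3 µg/ml) and CD28 (1 µg/ml) with IL-2 (10 ng/ml). Antibodies that block IL-4 (5 µg/ml) and IFN-γ (5 µg/ml) were present in both cultures. The sources used here name neither the knockout allele nor the age and sex of the mice, nor whether RNA of several mice was pooled. Per genotype label there was 1 array, so no test was possible, and the spreads given below are those between spots and between probes within the arrays. By its title the series asks whether Gfi1, a zinc-finger protein that represses transcription, holds back the T helper 1 programme in activated CD4 T cells.

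T helper 1 cells are CD4 T cells that make IFN-γ, the cytokine that activates macrophages. T-bet drives their programme, with Runx3 and the homeobox factor Hlx as partners and Eomes as a related factor that is better known from CD8 T and NK cells. IL-12 acts through a receptor of the chains encoded by Il12rb1 and Il12rb2 and activates Stat4, and IL-18 acts through the chains encoded by Il18r1 and Il18rap. IL-12 and IL-18 together are strong inducers of Ifng in cells that carry both receptors.

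Sequences upstream of the start site are shown for Ifng, Tbx21, Il12rb2 and Il18r1, which are among the genes with the largest differences below. Each is the 250 bases before a start site in RefSeq's GRCm38.p6 annotation, 5′ to 3′ on the gene's strand. The windows lie at chr10:118440796-118441045 (plus strand) for Ifng, chr11:97115332-97115581 (minus strand) for Tbx21, chr6:67376189-67376438 (minus strand) for Il12rb2 and chr1:40465756-40466005 (plus strand) for Il18r1, which has 3 such windows of which the one with matches is printed. Capitals mark matches to the STAT motif TTCNNNGAA, which reads the same on both strands.
Ifng: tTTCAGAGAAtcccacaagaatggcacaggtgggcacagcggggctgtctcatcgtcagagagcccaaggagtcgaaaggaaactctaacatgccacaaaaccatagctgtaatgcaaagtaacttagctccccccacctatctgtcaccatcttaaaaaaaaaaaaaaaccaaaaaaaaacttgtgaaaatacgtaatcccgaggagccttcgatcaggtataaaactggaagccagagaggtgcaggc
Tbx21: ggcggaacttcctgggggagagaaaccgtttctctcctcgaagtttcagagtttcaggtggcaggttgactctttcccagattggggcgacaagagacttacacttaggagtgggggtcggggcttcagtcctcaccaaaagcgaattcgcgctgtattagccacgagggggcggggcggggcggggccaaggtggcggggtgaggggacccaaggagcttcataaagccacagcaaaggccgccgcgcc
Il12rb2: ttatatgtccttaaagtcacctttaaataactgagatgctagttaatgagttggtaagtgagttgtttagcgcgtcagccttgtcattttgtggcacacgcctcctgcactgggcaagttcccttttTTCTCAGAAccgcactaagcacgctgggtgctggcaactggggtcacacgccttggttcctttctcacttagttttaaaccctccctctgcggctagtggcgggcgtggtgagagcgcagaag
Il18r1: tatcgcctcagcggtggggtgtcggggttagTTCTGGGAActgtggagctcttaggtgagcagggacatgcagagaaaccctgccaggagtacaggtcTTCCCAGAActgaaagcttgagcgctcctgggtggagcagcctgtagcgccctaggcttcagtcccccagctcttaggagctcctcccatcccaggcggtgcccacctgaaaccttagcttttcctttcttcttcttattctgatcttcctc
The match lay at -249 to -241 from the start in Ifng and at -123 to -115 in Il12rb2, and the Il18r1 window held matches at -219 to -211 and -152 to -144. Among 13 windows of 9 of these genes, 3 held the motif, against 7.02% of all 32851 windows of the same length in the table. The T-box core AGGTGT was found on either strand in 0 of the 13 windows (11.8% of all windows), and a GFI1 core with its flank, AAATCA, also in 0 (12.4%). The RUNX core TGTGGT was in 1 of them, upstream of Runx3 itself (14% of all windows). No match overlapped that of another motif. A match is a run of letters and not a shown binding site, and a window without one says nothing of sequence outside it.

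Each array was read at 59305 spots of 55681 probes, and the 75th percentile of probe signals was 269 units in the knockout-labelled library and 263 units in the wild-type-labelled library. The median signal over probes, 14.6 units in the knockout-labelled library and 14.2 units in the wild-type-labelled library, served as the floor above which a probe counted as detected. Differences are log2, knockout-labelled minus wild-type-labelled, after each array was divided by its 75th percentile. Gfi1 itself read 18100 units in the knockout-labelled library and 4260 units in the wild-type-labelled library on its single probe, a difference of 2.05. The sources used here do not place that probe inside or outside the deleted part. Inside, the reading would go against the labels, and outside it would check nothing, so each direction below rests on the labels. Sex-linked transcripts also separated the libraries, with Xist at 3.86 units in the knockout-labelled library and 447 units in the wild-type-labelled library and the Y-linked Eif2s3y at 3870 units knockout-labelled and 2.91 units wild-type-labelled, so genotype label and sex of the cells cannot be told apart. All 7 CD4 T cell markers were detected on both arrays. Cd4, Cd3e, Cd3d, Cd3g, Cd5 and Cd28 had differences between -0.43 and -0.14, and Zbtb7b, the factor gene of the CD4 lineage, stood at 0.17 ± 0.19 (SD over 3 probes).

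Of the 10 genes 9 were detected, all 9 on both arrays, and 5 of these were at least 2-fold higher in the knockout-labelled library: Ifng, Il12rb2, Tbx21, Il18r1 and Eomes. The other 4 detected genes, Il18rap, Runx3, Il12rb1 and Stat4, were also brighter there, by less than 2-fold, and 0 were at least 2-fold lower. Over all 13410 detected genes, which give the background for these counts, 3.62% were at least 2-fold higher, 1.52% at least 2-fold lower and 41.6% higher by any amount. At 1.5-fold the count was 8 of 9 (7.67% of all detected genes), and at 3-fold it was 3 of 9 (1.6%). The median difference was 1.47 over the 9 genes and -0.05 over all detected genes. At the level of probes, 8 of the 14 detected probes of the axis were at least 2-fold higher, against 3.27% of all 29363 detected probes. Of the 5 genes read by more than 1 probe, 3 had both probes past 2-fold and 2 had neither past it, so the probes of a gene fell on the same side of this limit. The number of arrays limits the precision of each of these values.

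**Figure D1:**
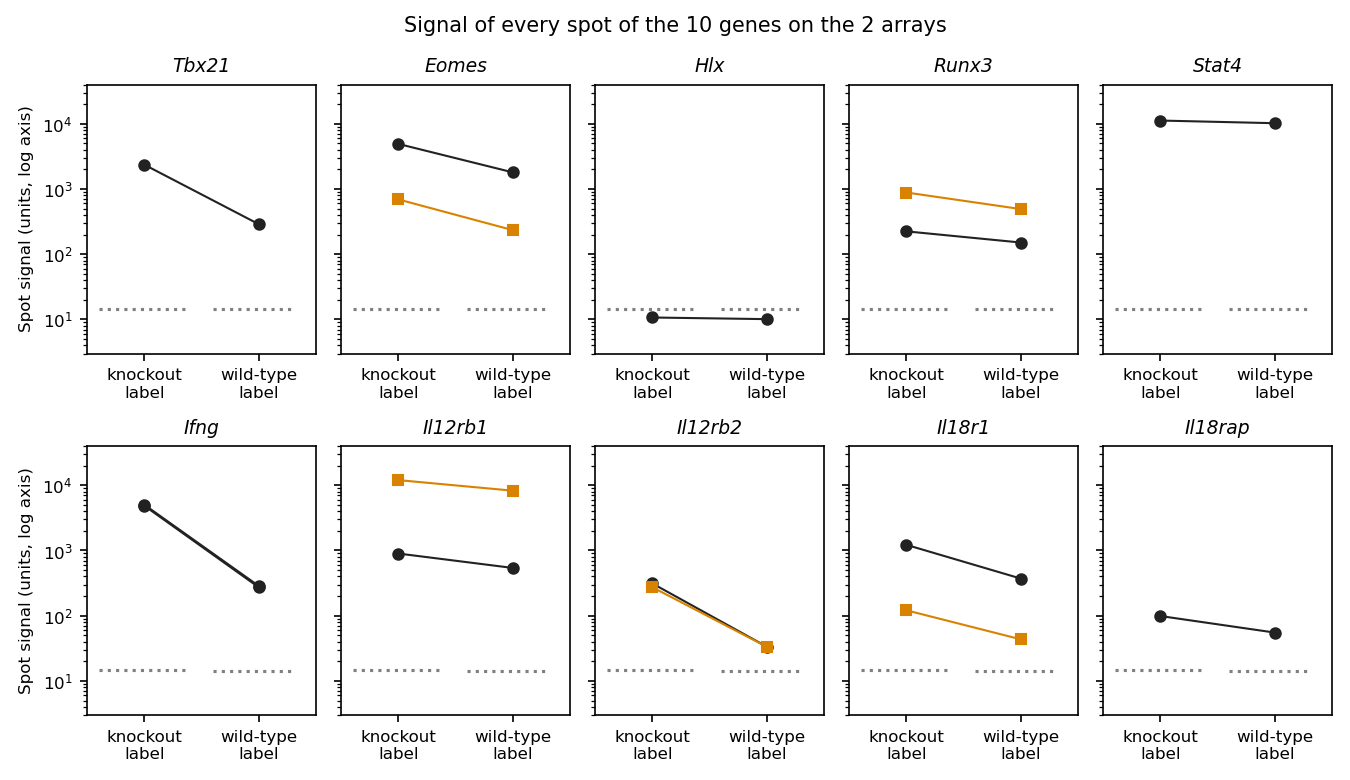
Signal of every spot of the 10 genes (units, log axis) on the knockout-labelled array (left in each panel) and the wild-type-labelled array (right), with lines joining the 2 readings of a spot, colours and symbols marking different probes of a gene, and dotted lines at the detection floors of 14.6 units knockout-labelled and 14.2 units wild-type-labelled. Lines slope most for Ifng, Il12rb2 and Tbx21, lie nearly flat for Stat4, and both Hlx readings are under the floors.

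Among the transcription factors, Tbx21 differed most. Its single probe read 2360 units in the knockout-labelled library and 289 units in the wild-type-labelled library, which after scaling is a 7.98-fold difference (log2 3.00). This placed it 36th of the 13410 detected genes by height of the difference. The spot has a feature number above 50000, a range in which dim spots differed more often, with 25.5% of those of 15 to 50 units past 2-fold against 7.99% of other spots as dim. At 500 to 5000 units, where Tbx21 lies, 1.44% of spots above 50000 were at least 2-fold higher, against 1.53% of the others. Probes printed on 10 spots had a median SD of the difference of 0.05 at such signals.

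Eomes, the related T-box gene, was read by 2 probes with accession NM_010136. The brighter probe gave 4910 units in the knockout-labelled library and 1800 units in the wild-type-labelled library, and the dimmer one 692 units knockout-labelled and 234 units wild-type-labelled. Their differences of 1.42 and 1.53 average to 1.47 ± 0.08 (SD over 2 probes), or 2.78-fold. Both Eomes probes thus stood clear of 2-fold, and the Tbx21 difference exceeded that of Eomes by 1.52. Of the 15 other T-box family genes measured, 4 were detected and 0 were past 2-fold. Few of all detected genes passed this limit (3.62% higher and 1.52% lower). Tbx22 stood at 0.31, Tbx10 and Mga both at -0.15, and Tbx6 at -0.20 ± 0.19 (SD over 2 probes). Tbx21 and Eomes thus had the largest differences of the detected T-box genes.

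Runx3, which encodes a partner of T-bet at the Ifng locus, was brighter by a smaller amount. One probe read 883 units in the knockout-labelled library and 492 units in the wild-type-labelled library, and the other 224 units knockout-labelled and 151 units wild-type-labelled. The mean difference was 0.67 ± 0.19 (SD over 2 probes), or 1.60-fold, and neither probe reached 2-fold. The other RUNX genes did not share a direction. Runx1 stood at -0.18 ± 0.29 (SD over 2 probes), Cbfb, the common partner subunit of RUNX proteins, at -0.08, and Runx2 at 0.78 on a dim spot of 28.4 units knockout-labelled and 16.2 units wild-type-labelled.

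Stat4, which carries the IL-12 signal to the nucleus, was nearly level. Its probe read 11200 units in the knockout-labelled library and 10200 units in the wild-type-labelled library, a difference of 0.10. Probes printed on 10 spots had a median SD of the difference of 0.04 at 5000 to 50000 units, which the difference exceeds, whereas among 3656 genes read by more than 1 detected probe the probes of a gene had a median SD of 0.10. The 5 other STAT genes measured were all above 0 (41.6% of all detected genes), with a median of 0.36. Of these 1 was at least 2-fold higher (3.62%). That gene, Stat2, which transmits type I interferon signals, read 3570 units knockout-labelled and 1240 units wild-type-labelled (1.49). Stat3 stood at 0.52 ± 0.04 and Stat5b at 0.36 ± 0.01 (SD over 2 probes each), Stat5a at 0.13 and Stat6 at 0.01 ± 0.12 (SD over 3 probes).

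Hlx, a homeobox factor that acts with T-bet on Ifng, lay below the floor on both arrays. Its probe read 10.7 units in the knockout-labelled library and 10.1 units in the wild-type-labelled library, so no fold is given.

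Ifng had the largest difference of the axis. Its probe is printed on 2 spots, which read 5030 and 4860 units in the knockout-labelled library and 286 and 273 units in the wild-type-labelled library. The readings of the libraries were far apart, and the 2 spots gave differences of 4.10 and 4.12 (SD 0.01). After scaling the gene was 17.3-fold higher (log2 4.11) and 8th of all 13410 detected genes. One spot lies above feature number 50000 and the other below, and both gave the same answer within 0.02. The medium held antibody to the IFN-γ protein in both cultures, while the array reads its transcript.

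The receptor genes split by chain. Il12rb2, the inducible chain that T helper 1 cells keep, was read by probes at 312 and 273 units in the knockout-labelled library and at 33.5 and 33.4 units in the wild-type-labelled library. Its difference was 3.09 ± 0.13 (SD over 2 probes), or 8.53-fold, and it ranked 32nd. The wild-type-labelled readings are dim but stand above the floor of 14.2 units, and both probes agree. With the floor raised to the 75th percentile of probes, the wild-type-labelled side falls under it and the difference is held to 0.12, a bound that says nothing of its size.

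Il12rb1, the chain shared with the IL-23 receptor, was bright in both libraries. One probe read 12000 units in the knockout-labelled library and 8260 units in the wild-type-labelled library, and the other 898 units knockout-labelled and 540 units wild-type-labelled. The difference of 0.60 ± 0.14 (SD over 2 probes) is 1.52-fold. The probes of the receptor chains did not overlap in their differences, which were 3.00 and 3.19 for Il12rb2 and 0.51 and 0.70 for Il12rb1, and the gap between the gene values was 2.49.

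Il18r1, the IL-18 binding chain, was read by 2 probes annotated to different RefSeq transcripts. The probe of NM_008365 gave 1220 units in the knockout-labelled library and 371 units in the wild-type-labelled library, and that of NM_001161842 gave 121 units knockout-labelled and 43.4 units wild-type-labelled. Both were past 2-fold, with a mean of 1.57 ± 0.17 (SD over 2 probes), or 2.96-fold. Il18rap, the accessory chain required for signalling, read 98.8 units knockout-labelled and 55.1 units wild-type-labelled on a single probe, a difference of 0.81 (1.75-fold). That spot also lies above feature number 50000, and at its signal of 50 to 500 units 5.51% of such spots were at least 2-fold higher, against 3.27% of the others.

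**Figure D2:**
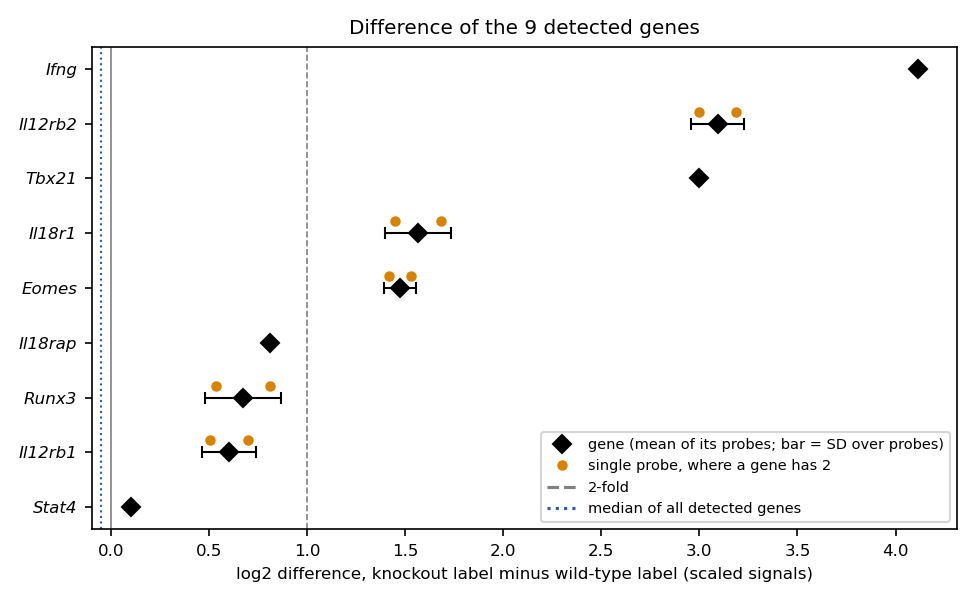
Log2 difference, knockout-labelled minus wild-type-labelled, of the 9 detected genes (diamonds, means of their probes), with bars for the SD over probes and orange points for the single probes where a gene has 2. All 9 diamonds lie right of 0 and of the dotted line at the median of all detected genes (-0.05), and 5 lie right of the dashed 2-fold line.

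By size of difference the genes fell into steps. Ifng stood alone at 4.11. Il12rb2 and Tbx21 followed at 3.09 and 3.00 and were not separated, as the gap is smaller than the SD between the Il12rb2 probes. Il18r1 and Eomes, at 1.57 and 1.47, did not differ beyond their probe spreads either. Il18rap, Runx3 and Il12rb1 lay between 0.60 and 0.81, a range the Runx3 probes alone (0.54 and 0.81) cover, and Stat4 was last at 0.10. By rank among all detected genes, 8 of the 9 were in the top 10% of differences and Stat4 was not.

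**Figure D3:**
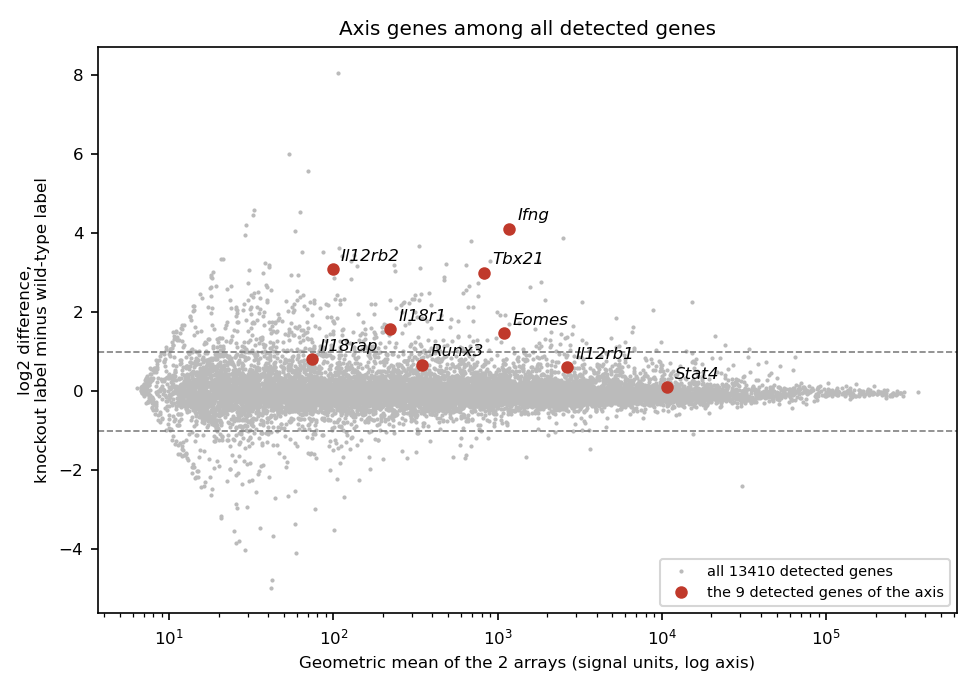
Log2 difference, knockout-labelled minus wild-type-labelled, of all 13410 detected genes (grey) against the geometric mean of their signals on the 2 arrays (log axis), with the 9 detected genes of the axis in red and dashed lines at 2-fold. Ifng, Tbx21 and Eomes lie above the dashed line in a range of signals where few grey points do, and Stat4 lies within the grey band.

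Further detected members of the IL-12 and IL-1 receptor families stayed within 2-fold, as most detected genes did. Of all detected genes, only 3.62% passed that limit upward and 1.52% downward, so staying within it does not set these families apart. Of 8 other IL-12 family genes measured, 4 were detected, 0 were past 2-fold and the median was -0.14. Ebi3, a subunit of IL-27 and IL-35, stood at 0.59 (6790 units knockout-labelled and 4410 units wild-type-labelled), Il27 at -0.10, Il27ra at -0.18 and Il6st, the signalling chain gp130, at -0.54. Il12a, Il12b, Il23a and Il23r were below the floor on both arrays. Of 7 other genes of the IL-1 receptor family measured, 3 were detected and all 3 were below 0 with a median of -0.33. Only 41.6% of all detected genes were above 0, so this direction was the commoner one. The 3 were Sigirr, an inhibitory member, at -0.33, the decoy receptor gene Il1r2 at -0.33, and Il1rap, the accessory chain of the IL-1 receptor, at -0.22. Il18r1 and Il18rap are also neighbours on chromosome 1.

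Genes of IL-12 and IL-18 signalling, the IL-18 ligand included, went both ways. All 17 measured genes of this list were detected, with a median of 0.11. Past 2-fold lay 2 on the higher side (3.62% of all detected genes) and 0 on the lower (1.52%). Gadd45g, an activator of the p38 route by which IL-12 and IL-18 induce Ifng, read 7290 units in the knockout-labelled library and 1480 units in the wild-type-labelled library (2.27, or 4.82-fold). Il18 itself read 61.0 units knockout-labelled and 17.9 units wild-type-labelled (1.74). Below 2-fold, Gadd45b stood at 0.71 and the kinase gene Map3k8 at 0.65. The kinase genes Jak2 and Tyk2, which serve the IL-12 receptor, stood at 0.11 and 0.04, and Myd88, the IL-18 receptor adaptor, at 0.11. On the other side were Nfkbiz, which encodes an inducible NF-κB cofactor, at -0.99, Map2k6, a p38-activating kinase gene, at -0.61, and Irak3, an inhibitory kinase-family gene, at -0.44 on a dim spot.

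Genes reported elsewhere as targets of T-bet or STAT4 were brighter in most cases. This list, like the others here, was chosen with earlier results of these data known, so its counts are no independent support. Of 21 measured and detected, 9 were 2-fold or more higher (3.62% of all detected genes) and 0 lower by as much. Above 0 were 20 (41.6% of all detected genes), and the median was 0.81. The chemokine genes Ccl3 and Ccl4 stood at 2.67 and 2.31 (1700 units knockout-labelled and 262 units wild-type-labelled, and 4400 units knockout-labelled and 868 units wild-type-labelled), Gzmb, which encodes granzyme B, at 2.27, and Lta, which encodes lymphotoxin, was 2.82-fold higher. Ly6c1 differed between its probes, at 2.90 ± 1.37 (SD over 2 probes). Also past 2-fold were Havcr2 (1.40), Ctsw (1.28), Nkg7 (1.07 ± 0.35, SD over 2 probes) and Furin (1.00). Havcr2 was dim, at 39.5 units knockout-labelled and 14.6 units wild-type-labelled, the latter near the floor of 14.2 units. Furin stood at 0.997 with scaling to the median, and the brighter Nkg7 probe at 0.82, both under 2-fold. Cxcr3, the chemokine receptor that T-bet is known to induce, reached 0.81 (805 units knockout-labelled and 448 units wild-type-labelled), Prf1, which encodes perforin, 0.66, and Ccl5 0.27. Cxcr6 stood at -0.99 on both probes. Of the 9 genes past 2-fold, 4 (Ccl4, Ly6c1, Havcr2 and Ctsw) were read only on spots above feature number 50000, and without such spots the median was 0.67.

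Downstream of IFN-γ, the receptor and its kinases were nearly level, while response genes were brighter by amounts that varied widely. Ifngr1 and Ifngr2, the receptor chains, stood at 0.22 and -0.02, and Jak1 at -0.02, the signs of Ifngr2 and Jak1 turning under other scalings. Past 2-fold were 9 of the 20 detected genes of this list, all 9 of them higher (3.62% of all detected genes). The list's median was 0.81. Cxcl10, a chemokine gene, read 853 units in the knockout-labelled library and 183 units in the wild-type-labelled library (2.19), and Irgm1, a GTPase gene, stood at 1.73 ± 0.04 (SD over 2 probes). Cd274, which encodes PD-L1, stood at 1.39, Irf8 at 1.24, and Tap1 and Igtp both at 1.16. Socs1, which encodes an inhibitor of the IFN-γ receptor kinases, stood at 1.11. Irf1 gave 0.87 ± 0.60 over probes of very different signal, of which the brighter read 11700 units knockout-labelled and 4650 units wild-type-labelled. Many of these genes answer type I interferon as well, and the list does not tell the interferons apart.

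Other regulators of the T helper 1 programme were mixed. Past 2-fold were 5 of the 25 detected, all 5 of them higher (3.62% of all detected genes) and Gfi1 among them. The list's median was 0.58. Batf3, an AP-1 family factor gene, stood at 1.78, Socs3, which encodes an inhibitor of cytokine signalling, at 1.35, and Irf8 and Socs1 as given above. Bhlhe40 and Zbtb32, which encode transcription factors, stood at 0.95 and 0.84, and Kdm6b, which encodes a histone demethylase, at 0.92, and Gata3, the T helper 2 factor gene that opposes T-bet, at 0.68. Twist1, which encodes a restraint on T helper 1 cytokines, read 5.02 units in the knockout-labelled library, below the floor, and 23.3 units in the wild-type-labelled library, which makes it at least 1.63-fold lower. Zfpm1, which encodes the GATA3 cofactor FOG1, stood at -0.53 on both probes, and Bcl6 at -0.02, a sign that turns under other scalings.

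**Figure D4:**
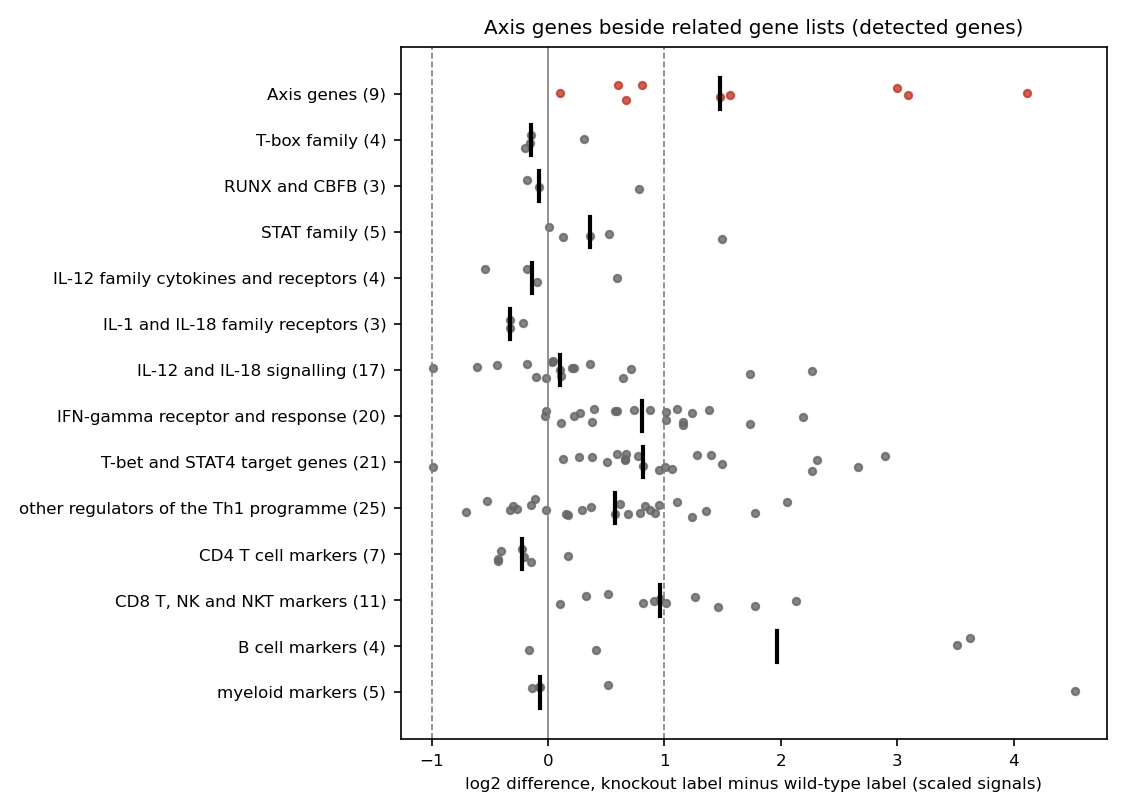
Log2 difference, knockout-labelled minus wild-type-labelled, of the detected genes of the axis (red, top row) and of 13 related gene lists without the axis genes (grey), 1 point a gene, with black bars at the medians, the number of genes in brackets and dashed lines at 2-fold. The axis median of 1.47 lies above those of the T-bet and STAT4 target list and the IFN-γ list (0.81 each) and below that of the 4 B cell markers (1.96), and the T-box, RUNX, IL-12 family and IL-1 receptor family lists have medians from -0.33 to -0.08.

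Genes next to the axis genes on the chromosomes were compared as well. Among the nearest 2 named protein-coding genes on each side, 36 in all outside the axis, 25 were detected, with a median of 0.02. Of these 2 were past 2-fold, both higher, against 3.62% of all detected genes. Tbkbp1, which directly neighbours Tbx21 on chromosome 11, read 184 units in the knockout-labelled library and 26.2 units in the wild-type-labelled library over its probes (2.07 ± 0.85, SD over 3 probes). The next genes around Tbx21, Osbpl7, Mrpl10 and Kpnb1, stood at -0.09, -0.0035 and -0.20. Nabp1, near Stat4 on chromosome 1, stood at 1.02. The Ifng neighbours Il22, Dyrk2 and Cand1 stood at 0.71, 0.13 and -0.12, with Il22, whose close copy Iltifb lies beside it and may share its signal, dim at 30.7 units knockout-labelled and 18.3 units wild-type-labelled. Gadd45a and Serbp1 beside Il12rb2 stood at -0.02 and 0.04, and Cmc1 and Golga4 beside Eomes at 0.41 and 0.0015. Clic4, the direct neighbour of Runx3, stood at 0.72 ± 0.20 (SD over 2 probes), close to Runx3 itself, while Syf2 on its other side stood at 0.0042 and Rsrp1 beyond it at -0.38. Dusp10 beside Hlx stood at -0.47, and Arrdc2 and Mast3 beside Il12rb1 at 0.32 and 0.05. The signs for Mrpl10, Syf2, Gadd45a and Golga4 turn under other scalings of the arrays.

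Most of the listed markers for CD8 T, NK and NKT cells gave higher readings where the axis genes did. Zbtb16, the NKT cell factor gene, was nearly level. Of the 11 measured markers 5 (Cd8a, Ncr1, Klrb1c, Klrk1 and Klre1) were detected only in the knockout-labelled library, so their direction is fixed by detection and their differences are bounds. The other 6 were detected on both arrays and above 0, and 4 of them were at least 2-fold higher (3.62% of all detected genes). These were Klra4 (2.13), Tyrobp (1.78), Fcer1g (1.46) and Klra1 (1.01 ± 0.98, SD over 2 probes). The Klra1 probes stood at 0.32 and 1.70, so 1 of them was within 2-fold. Cd8b1, at 0.91, and Zbtb16 were not past 2-fold. The list's median of 0.96 is the bound of Ncr1, and it was 0.063 with the floor at the 75th percentile. The summed signal of all 11 markers was 1186 units in the knockout-labelled library and 460 units in the wild-type-labelled library. This sum includes the 5 markers whose direction is fixed by detection. Cd8a, which defines CD8 T cells, read 34.9 units in the knockout-labelled library and 4.07 units, below the floor, in the wild-type-labelled library. Ncr1, which defines NK cells, read 28.3 units knockout-labelled and 10.2 units wild-type-labelled, again with the wild-type-labelled value below the floor, and Klrb1c and Klrk1 behaved likewise. Cd8b1 read 244 units knockout-labelled and 127 units wild-type-labelled, and Zbtb16 17.5 units knockout-labelled and 15.9 units wild-type-labelled. The Zbtb16 difference of 0.11 was below the median SD of 0.35 for probes printed on 10 spots at 15 to 50 units. CD8 T, NK and NKT cells express Ifng, Tbx21 and Eomes too, and their part in the differences of the axis was not tested. In bulk RNA, more cells of a type and more transcript per cell cannot be told apart.

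B cell and myeloid markers were uneven. The B cell list had a median of 1.96, which was 0.21 with the floor at the 75th percentile. Of 4 detected B cell markers, Ms4a1 and Blnk stood at 3.52 and 3.62, with 221 and 386 units in the knockout-labelled library and 18.9 and 30.6 units in the wild-type-labelled library, while Cd79b stood at -0.17 and Cd79a at 0.41 ± 0.72 (SD over 2 probes). The summed signal of these markers was 900 units in the knockout-labelled library and 358 units in the wild-type-labelled library. Of 5 detected myeloid markers 1 was past 2-fold, against 3.62% of all detected genes higher and 1.52% lower. This was Mpeg1, at least 23.1-fold higher, and the list's median was -0.07. Mpeg1 and Cd68 were detected only in the knockout-labelled library and Adgre1 only in the wild-type-labelled library. Their direction is thus fixed by detection and their differences are bounds. Csf3r read 44100 units knockout-labelled and 45500 units wild-type-labelled (-0.08), above Cd3e at 15900 and 20900 units. Itgam stood at -0.07 ± 0.29 (SD over 3 probes). Its probe of 5170 units knockout-labelled stood at 0.25 and its dimmer ones at -0.16 and -0.31. Whether the Csf3r and Itgam readings follow myeloid cells was not tested. Lyz2 was below the floor on both arrays. The part of these cells in the differences of the axis was not tested.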

How the data were processed

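For each array 100 ng of RNA was labelled with Cy3, per the labels' protocols, and read with Agilent Feature Extraction 11.5.1.1, per the submitters' processing notes. The deposited per-array files hold 1 linear intensity per spot, without flags or control spots, and the sources used here do not state its background correction. The authors' series table holds these intensities times a constant (median 2.26 knockout-labelled, 2.27 wild-type-labelled) of unknown origin, not centred (column medians 34.8 and 34.4).

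Log2 signals were averaged per probe and scaled by the 75th percentile of the array. Values under the array's median were set to it, probes under it on both arrays were dropped, and a gene is the mean of its remaining probes. A gene under it on 1 array has a bound. The platform annotation gives 31465 spots 1 symbol, 0 several and 27840 none. Symbols were updated by accession (29036 spots), symbol (2075) or synonym (353), and 1 was kept. All 10 axis genes matched by symbol. With 1 array per genotype there was no test, and genes were counted at 2-fold.

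The genes, the 13 lists, the motifs and the alternatives were chosen with earlier results of these data known. The naming rule takes all axis genes, Gfi1, list genes past 2-fold with 4 more per list, nearest neighbours and markers. Not all of these are named, and genes outside it (such as Jak1, Jak2, Tyk2, Myd88, Ifngr1, Ifngr2, Gbp3, Psmb8, Prf1, Ccl5, Cxcr3, Bcl6, Gata3, Xist and Eif2s3y) were picked after their values were seen. The steps were run on simulated arrays whose noise was that between spots of a probe. Such arrays do not cover variation between mice or cultures. Alternatives were 4 other scalings (median, quantile, cyclic loess with span 0.3, none), the series table, floors at percentiles 25 and 75, only probes detected on both arrays, the brightest or the median probe, adding 16 units, dropping spots above feature number 50000, and thresholds of 1.5-fold and 3-fold. Software was Python 3.11.15 (numpy 2.4.6, pandas 2.3.3, statsmodels 0.14.6, matplotlib 3.10.9).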

Additional observations from a re-analysis of the deposited data

How the results depend on the processing

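No paired analysis was possible because there is 1 array per genotype label. The axis count of 5 genes higher was 5 under 10 of 14 alternatives and 4 under 2, namely with the floor at the 75th percentile (of 8 genes, Il12rb2 being held under 2-fold) and without spots above feature number 50000 (of 7, without Tbx21 and Il18rap, which then have no value). It was 8 at 1.5-fold and 3 at 3-fold. The count of axis genes lower was 0 under all 14. Each of the 9 detected axis genes stayed above 0 under each alternative that gave it a value, and Ifng ranged from 4.04 to 4.17 and Tbx21 from 2.93 to 3.06. Il12rb2 was 0.12 when the floor was raised to the 75th percentile, and 2.61 after adding 16 units, since its wild-type-labelled signal is dim. The axis median was 1.14 with the floor at the 25th percentile, where Hlx enters, and 1.10 with the floor at the 75th.

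Over all genes, the floor at the 25th percentile gave 980 higher and 634 lower and that at the 75th 136 and 20, against 485 and 204. Thresholds of 1.5-fold and 3-fold gave 1029 and 214 higher, and 570 and 87 lower. Lower genes were 117 with the offset, 125 with probes detected on both arrays and 105 without spots above 50000. The median of all detected genes lay between -0.06 and 0.01.

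List medians moved by more than the median SD between probes in these cases. With the floor at the 25th percentile they were 1.01 for IFN-γ, 0.95 for T-bet and STAT4 targets, 0.45 for other regulators, 0.15 for the IL-12 family, 1.46 for CD8 T, NK and NKT markers and 0.41 for B cell markers. With the floor at the 75th they were 1.02 for IFN-γ, 0.39 for regulators, 0.31 for the T-box family, 0.063 for CD8 T, NK and NKT markers, 0.21 for B cell markers and 0.25 for myeloid markers. Without spots above 50000 they were 0.59 for IFN-γ, 0.67 for targets and 0.41 for regulators. With the offset they were 0.40 for regulators, 0.72 for CD8 T, NK and NKT markers and 1.53 for B cell markers. The brightest probe gave 0.32 for regulators, 0.021 for RUNX genes, 2.22 for B cell and 0.25 for myeloid markers. Probes detected on both arrays gave 1.01 for IFN-γ and 1.24 for CD8 T, NK and NKT markers. The floor changes which dim genes enter and where they are held; other causes were not tested.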
